A study of Mus musculus with 16 samples.

Results

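Liver transcriptomes were compared between progeroid mice on a protein-rich diet poor in carbohydrate (4 animals) and mice on a protein-poor diet rich in carbohydrate (4 animals). These 8 libraries were taken from a series of 16 by their titles, which read low carbohydrate - high protein or low protein - high carb, and all 54752 genes of the count table entered the analysis. All 8 animals were male Ercc1 d/- mice on an F1 Hybrid C57BL6J/FVBN background, aged 11 weeks, and carried the same repair defect, so no repair-proficient animal enters the comparison. AIN93G reference pellets were their food up to 8 weeks of age. From then on each animal had 1 of the diets, assigned at random and offered ad libitum. The high protein diet held 194% of the reference protein and 70% of the reference carbohydrate, and the low protein diet 70% of the protein and 112% of the carbohydrate, at matched energy. Protein and carbohydrate thus differ in opposite directions between the groups and cannot be told apart.

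Liver takes up most amino acids that arrive from the gut. It strips their nitrogen, disposes of it through the urea cycle, and sends the carbon skeletons to glucose, ketone bodies or oxidation. Dietary sugar is handled in the same cells by glycolysis and fructolysis, and the surplus is turned into fatty acids and triglycerides under the transcription factors ChREBP and SREBP-1c. Glucagon and glucocorticoids favour amino acid breakdown and glucose production, whereas insulin favours sugar use and fat synthesis. Ercc1 forms part of the nuclease that cuts out damaged DNA on its 5′ side during nucleotide excision repair, and its loss leaves lesions that block transcription and brings on early features of ageing.

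The promoters of 4 genes to which the results below return are shown because their levels separated the diets completely. Slc38a2 encodes a sodium-coupled transporter of neutral amino acids, Ass1 a urea cycle enzyme, Arid5b a DNA-binding chromatin regulator and Elovl5 an elongase of polyunsaturated fatty acids. Each sequence runs from 250 bases before to 50 bases after the annotated transcription start (RefSeq, GRCm38.p6) and is written 5′ to 3′ on the gene's strand. Capitals mark any match, on either strand, to an E-box (CACGTG), a cAMP response element (TGACGTCA) or a C/EBP-ATF response element (TGATGNAAT). These matches did not overlap.
Slc38a2 (chr15:96699679-96699978, minus strand): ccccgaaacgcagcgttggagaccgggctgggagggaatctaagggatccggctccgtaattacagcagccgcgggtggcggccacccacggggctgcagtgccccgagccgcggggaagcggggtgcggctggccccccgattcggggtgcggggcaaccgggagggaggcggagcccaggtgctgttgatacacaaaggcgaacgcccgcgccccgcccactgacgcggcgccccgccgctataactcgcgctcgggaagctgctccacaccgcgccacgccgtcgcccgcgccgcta
Ass1 (chr2:31470020-31470319, plus strand): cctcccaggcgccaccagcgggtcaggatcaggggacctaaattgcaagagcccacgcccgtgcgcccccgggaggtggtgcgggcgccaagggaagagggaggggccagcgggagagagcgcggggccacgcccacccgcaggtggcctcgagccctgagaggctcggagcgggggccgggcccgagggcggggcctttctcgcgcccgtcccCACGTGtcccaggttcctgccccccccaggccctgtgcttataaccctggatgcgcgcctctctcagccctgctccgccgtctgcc
Arid5b (chr10:68278677-68278976, minus strand): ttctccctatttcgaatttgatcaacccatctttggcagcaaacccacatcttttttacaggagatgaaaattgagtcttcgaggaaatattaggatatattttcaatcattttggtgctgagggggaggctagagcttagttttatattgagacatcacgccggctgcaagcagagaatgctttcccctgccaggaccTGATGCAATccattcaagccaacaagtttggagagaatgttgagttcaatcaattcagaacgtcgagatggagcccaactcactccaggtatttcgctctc
Elovl5 (chr9:77917115-77917414, plus strand): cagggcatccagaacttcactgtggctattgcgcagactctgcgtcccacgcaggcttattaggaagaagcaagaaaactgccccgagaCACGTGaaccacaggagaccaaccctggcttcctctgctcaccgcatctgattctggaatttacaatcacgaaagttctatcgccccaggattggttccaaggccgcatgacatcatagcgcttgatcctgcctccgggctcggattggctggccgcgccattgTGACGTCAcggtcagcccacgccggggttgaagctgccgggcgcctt
The Ass1 promoter held 1 E-box, 36 bases before the start. The Arid5b promoter held 1 C/EBP-ATF response element, 51 bases before the start. The Elovl5 promoter held 1 E-box, 161 bases before the start, and 1 cAMP response element that begins 3 bases after it. No match was found in the Slc38a2 window. Of 32851 promoters of this length, 7.15% held the E-box, 1.79% the cAMP response element and 0.96% the C/EBP-ATF response element. Of the 157 genes described here, 123 had a promoter in the RefSeq table.

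The 8 libraries held 36662347 to 46899907 counts, and animals of a group differed by more than counting noise (chi-square per degree of freedom 47.2 to 144). High protein libraries 1 and 4 stood apart from the others. Library 1 lay at the end of a first principal component that took 36.1% of the variance, and library 4 at the end of a second one that took 22.2%. Levels in CPM (counts scaled by TMM-adjusted library size unless stated) are given for animals 1 to 4 in that order, and the labels name no litter or cage, so p-values measure only the spread between these samples. Kidney transcripts, which liver should lack, made up 433 CPM or more in 7 of the 8 libraries. The summed level of 20 kidney markers was 1.56, 1613, 433 and 890.2 CPM of the library total with high protein and 1286, 1272, 694 and 721 CPM with low protein, so high protein library 1 was all but free of them. Hepatocyte markers summed to between 98898 and 118093 CPM in the high protein libraries and between 104319 and 121255 CPM in the others. Ercc1 itself was counted 47 to 80 times per library, and reads of the altered allele could be among them. A gene on the opposite strand, Cd3eap, overlaps Ercc1 and had 1927 counts in the 8 libraries against 512 for Ercc1, so with the strand setting not given the 2 genes' reads cannot be told apart. It stood at 1.72, 1.84, 1.63 and 1.26 CPM with high protein and 1.86, 1.67, 1.31 and 1.37 CPM with low protein, and the groups overlapped (edgeR adjusted p = 0.948). In bulk liver, fewer cells of a type and less RNA per cell cannot be told apart.

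No gene passed the threshold. In edgeR's quasi-likelihood test on the 8 libraries, 0 of 16638 genes tested (0%) reached an adjusted p under 0.05, and the smallest adjusted p was 0.0901. At an unadjusted p under 0.05 stood 2034 genes (12.2%), of which 1083 (6.51%) were higher and 951 (5.72%) lower with high protein. DESeq2 called 432 genes on the same counts, 258 higher (1.58%) and 174 lower (1.07%), all of which had an unadjusted edgeR p under 0.05. For 592 genes (3.56%) all 4 high protein libraries lay above all 4 low protein libraries, and for 534 (3.21%) they lay below. DESeq2 called 344 of these 1126 genes. With high protein library 3 left out edgeR called 50 genes and with high protein library 4 left out it called 2, while each other library left out gave 0. Among all tested genes, 8231 were higher and 8407 lower with high protein, with a median log2 fold change of -0.004. Levels and log2 fold changes (high less low protein, ± SE) are therefore given below with no claim that a gene passed the edgeR test, and the counts of each gene list are to be read against these shares.

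**Figure D1:**
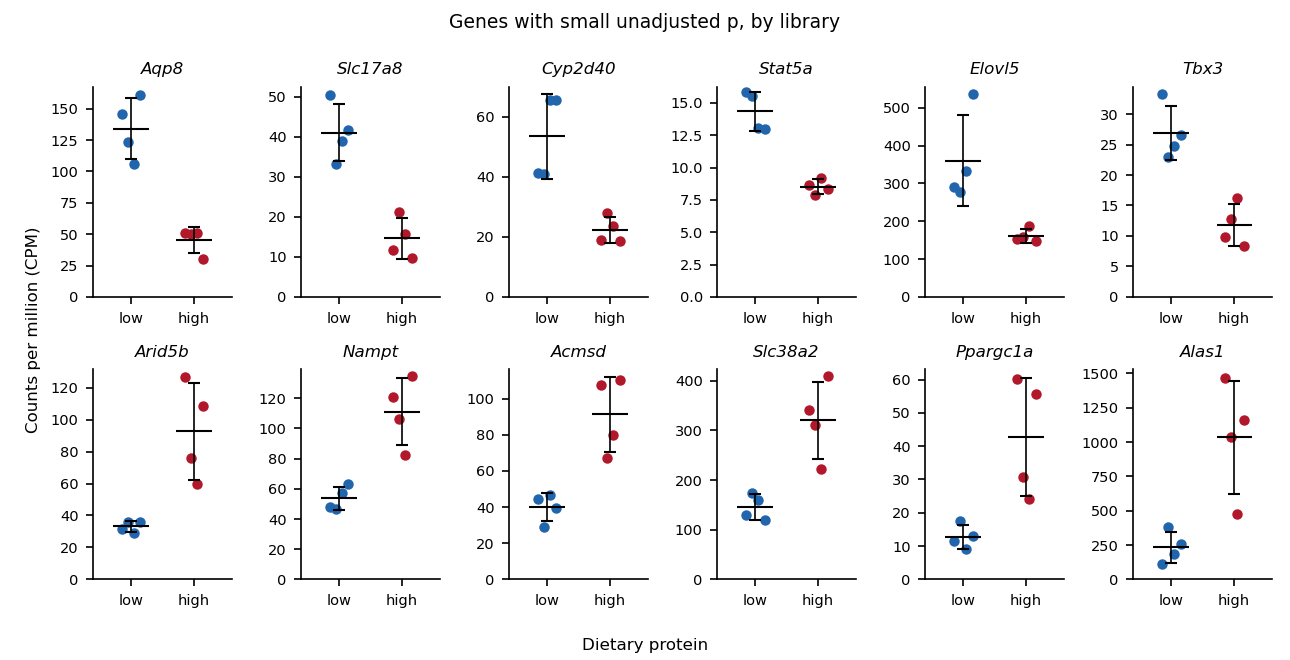
CPM of 12 genes in each of the 8 libraries, 4 low protein (blue) and 4 high protein (red), with the mean and SD of each diet as bars; axes are linear and start at 0. The points of the diets do not overlap for any of the 12 genes; Aqp8 lies between 30.0 and 51.3 CPM with high protein and between 106 and 161 CPM with low protein.

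The lowest p-value of a protein-coding gene belonged to Aqp8, a water channel of the hepatocyte's canalicular side and mitochondria (chromosome 7, 123462291 to 123468004, GRCm38). Aqp8 stood at 50.6, 49.9, 51.3 and 30.0 CPM with high protein and 146, 123, 106 and 161 CPM with low protein. Every high protein library lay below every low protein library, and the log2 fold change was -1.56 ± 0.19 (edgeR adjusted p = 0.0901, DESeq2 adjusted p = 2.52e-11). Slc17a8, which encodes a vesicular glutamate transporter known from neurons, stood at 11.8, 21.3, 15.8 and 9.65 CPM with high protein against 50.5, 33.2, 38.9 and 41.6 CPM. Stat5a, a transcription factor downstream of growth hormone and other cytokines, had 8.67, 7.85, 9.19 and 8.37 CPM with high protein and 15.8, 15.5, 13.1 and 13.0 CPM with low protein. The Stat5a values within each diet spanned under 3 CPM, and the difference of -0.75 ± 0.11 had an edgeR adjusted p of 0.111.

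Other genes lower with high protein were spread over several functions. Gpd2, the mitochondrial glycerol-3-phosphate dehydrogenase of the shuttle that carries glycolytic electrons into mitochondria, had a log2 fold change of -0.57 ± 0.09 and levels of 37.9, 36.6, 37.2 and 31.5 CPM against 51.3, 52.1, 57.7 and 51.5 CPM. Tbx3, a transcription factor of pericentral hepatocytes, had -1.19 ± 0.20. The kinase gene Nuak2 had -0.88 ± 0.15 and the lysosomal sulfatase gene Arsg -0.78 ± 0.14. Cyp2d40, one of a family of near-identical cytochromes whose shared reads make it uncertain, had -1.27 ± 0.20. The uncharacterised 5830473C10Rik had -0.52 ± 0.09. The libraries of the diets did not overlap for any of these 6 genes, and their edgeR adjusted p-values were 0.111 to 0.119.

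Among genes higher with high protein, Arid5b (chromosome 10, 68092520 to 68278740) stood at 127, 76.2, 59.8 and 109 CPM against 31.5, 35.8, 29.2 and 36.1 CPM with low protein. The low protein animals were tightly grouped and the high protein animals were not, and the lowest high protein animal was still above the highest low protein animal. Its log2 fold change was 1.49 ± 0.21 (edgeR adjusted p = 0.111, DESeq2 adjusted p = 1.9e-08). Nampt, the rate-limiting enzyme of NAD salvage, stood at 121, 106, 82.7 and 135 CPM against 48.2, 46.9, 56.9 and 63.2 CPM (1.05 ± 0.16). Acmsd, which diverts the tryptophan pathway away from NAD synthesis, stood at 107, 67.4, 79.8 and 110.1 CPM against 44.7, 29.0, 46.6 and 39.6 CPM (1.19 ± 0.19). The fold differences were 2.07 for Nampt and 2.28 for Acmsd, and neither gene overlapped between diets.

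The remaining genes of smallest p on that side had no overlap either. Pptc7, a mitochondrial phosphatase, had 1.11 ± 0.19 and Lancl1, a glutathione-binding protein, 0.55 ± 0.09. Gnl3, the nucleolar protein nucleostemin, had 0.64 ± 0.10, Hip1r, an endocytic adaptor, 1.16 ± 0.20 and the zinc finger gene Zfp970 1.16 ± 0.20. Their edgeR adjusted p-values were 0.111 to 0.119. Gnl3, Pptc7 and Hip1r, like Stat5a, Tbx3 and Arsg above, overlap a gene on the opposite strand, and since the strand setting of the counting is not given, reads of the overlap cannot be told apart. The same holds for Agpat2, Ccnd1, Cebpd, Csad, Dbp, Fkbp5, Irf7, Ndufb2, Nr1d1, Pnpla3, Ppox, Sds and Stab1 below, where the opposite gene had over 10% of the gene's own counts. With high protein libraries 1 and 4 left out, Hip1r was at 0.76.

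Noncoding genes were outside the naming rule, and 2 were chosen after their values were seen. The lincRNA Gm48199 (chromosome 13, 52180411 to 52181637) stood at 12.1, 10.1, 17.0 and 35.7 CPM with high protein and 1.39, 2.53, 1.19 and 1.62 CPM with low protein. Its log2 fold change of 3.47 ± 0.43 came with an edgeR adjusted p of 0.0901, and without high protein library 4 Gm48199 and Aqp8 were the 2 genes edgeR called. Gm15690 (chromosome 5, 120479842 to 120480903, minus strand) lies within Sds on the opposite strand and stood at 15.9, 11.0, 9.78 and 14.8 CPM against 2.01, 4.72, 3.56 and 3.22 CPM. Reads of Gm15690 and Sds cannot be told apart without the strand setting.

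Genes of amino acid breakdown were mostly higher with high protein. Of 81 tested genes in 5 lists (urea cycle, branched-chain, aromatic, serine to sulphur, and other amino acids), 58 were higher and 23 lower with high protein, with a median log2 fold change of 0.13. At an unadjusted p under 0.05 stood 31 higher and 3 lower, against 6.51% and 5.72% of all genes tested. All 4 high protein libraries lay above all 4 low protein libraries for 24 genes and below for 3, against 3.56% and 3.21% of all genes tested. DESeq2 called 20 higher and 0 lower, against 1.58% and 1.07% of the genes it tested. In the 6 libraries left without high protein 1 and 4, the counts were 56 higher and 25 lower, and the median was 0.07. There 21 higher and 3 lower stood at an unadjusted p under 0.05, against 588 and 539 of all 16632 genes that could be compared.

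**Figure D2:**
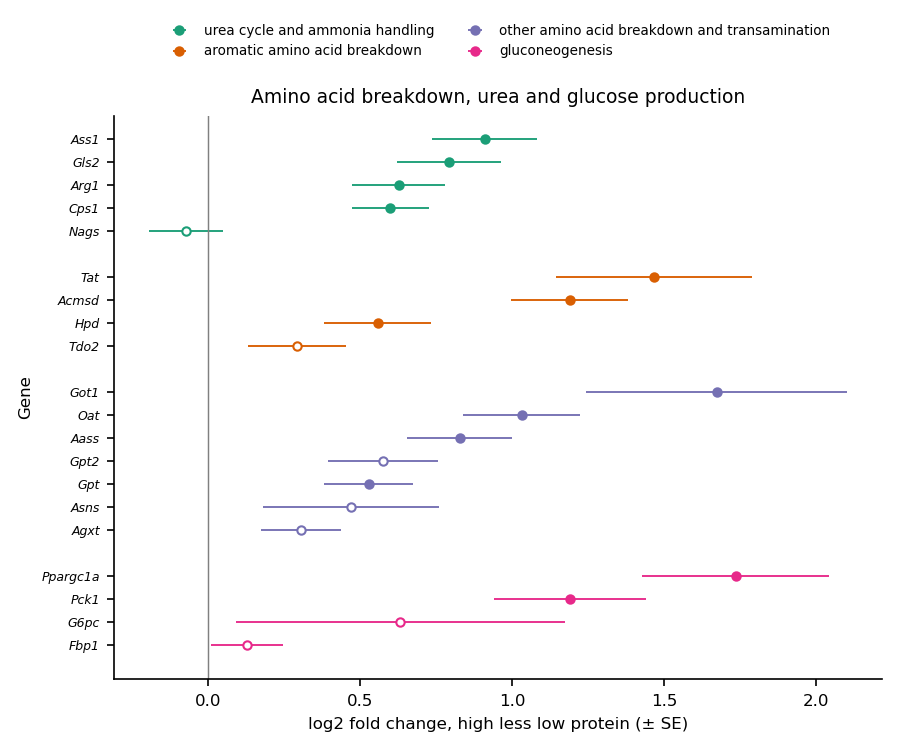
Log2 fold change (high less low protein, ± SE from edgeR) of the genes of 4 lists that are described in the text, coloured by list; filled circles mark genes whose 4 and 4 libraries do not overlap. The genes shown, which were picked in part for a small p, lie mostly right of 0, from Got1 (1.67) and Tat (1.47) to values near 0 such as Nags (-0.07).

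Amino acids enter hepatocytes through carriers in the plasma membrane. Slc38a2 stood at 341, 311, 222 and 409 CPM with high protein against 131, 175, 160.4 and 119 CPM with low protein. Its libraries did not overlap and its log2 fold change was 1.13 ± 0.19 (edgeR adjusted p = 0.119, DESeq2 adjusted p = 6.42e-06). Slc7a2, the hepatic carrier of arginine, lysine and ornithine, stood at 1525, 1086, 793 and 1415 CPM against 488, 606, 506 and 651 CPM (1.10 ± 0.20), also without overlap. Slc1a2, a glutamate carrier of pericentral hepatocytes, stood at 138, 116, 144 and 206 CPM against 68.3, 86.2, 78.0 and 87.2 CPM (0.92 ± 0.17). Of 19 transporters tested, 12 were higher and 7 lower with a median of 0.15. DESeq2 called 6 higher and 1 lower, against 1.58% and 1.07% of all genes tested. The median was 0.085 without low protein library 1 and 0.10 without high protein library 4.

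In the urea cycle, 8 of 11 genes were higher with high protein and the list median was 0.54. Of the 11, 6 were higher without overlap and 6 were called higher by DESeq2, against 3.56% and 1.58% of all genes tested. Cps1, the entry enzyme that joins ammonia and bicarbonate, stood at 6421, 4709, 4907 and 6099 CPM against 3548, 3424, 3797 and 3831 CPM. Ass1, which builds argininosuccinate, stood at 4349, 3512, 3916 and 5849.7 CPM against 2545, 1905, 2257 and 2676 CPM, a fold of 1.88. For both genes the groups were separate. Arg1, the arginase that releases urea, stood at 1743, 1324, 1204 and 1967 CPM against 967, 1022, 1007 and 1041 CPM (0.63 ± 0.15). Gls2, the liver glutaminase that frees ammonia from glutamine, stood at 697, 513, 411 and 736 CPM against 362, 334, 327 and 337 CPM (0.79 ± 0.17). In both, high protein animals 1 and 4 had the highest values and animals 2 and 3 lay nearer to the low protein group. Nags, which makes the activator of Cps1, overlapped between diets (-0.07 ± 0.12).

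The edgeR adjusted p-values were 0.165 for Cps1, 0.145 for Ass1, 0.186 for Arg1 and 0.172 for Gls2. Without high protein libraries 1 and 4, the list median was 0.27, with 9 of 11 genes higher, and the log2 fold changes were 0.39 for Cps1, 0.66 for Ass1, 0.32 for Arg1 and 0.44 for Gls2. A processed copy of Ass1 exists in the mouse genome, and reads shared with it could be split.

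Aromatic amino acid breakdown had 10 of 13 genes higher and a median of 0.29. Tat, the tyrosine aminotransferase, stood at 2552, 1598, 1635 and 4584 CPM against 731, 1168, 952 and 896 CPM. High protein animal 4 was far above the rest for Tat, and the lowest high protein value was above the highest low protein value (1.47 ± 0.32). Hpd, the next enzyme of tyrosine breakdown, had 0.56 ± 0.18 (DESeq2 adjusted p = 0.0663). Tdo2, which opens the tryptophan ring, overlapped (0.29 ± 0.16). With high protein libraries 1 and 4 left out, the list median was 0.11, with 0.78 for Tat and 0.23 for Hpd. Hpd was at 0.37 without library 4 alone.

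Serine, glycine and sulphur amino acid genes went in both directions, with 13 of 22 higher and a median of 0.04. Sds, the serine dehydratase that turns serine into pyruvate, stood at 511, 261, 197 and 752 CPM against 65.8, 152, 120.5 and 168 CPM (1.77 ± 0.42, edgeR adjusted p = 0.186, DESeq2 adjusted p = 0.0221). Animals 1 and 4 of the high protein group were the highest, and animals 2 and 3 exceeded the highest low protein animal by less. Its relative Sdsl had 0.82 ± 0.21, Gnmt, which uses up methyl groups from methionine on glycine, 0.55 ± 0.13, and Ahcy, which clears the resulting S-adenosylhomocysteine, 0.82 ± 0.19, all without overlap. Phgdh, the first enzyme of serine synthesis, lay on the other side at 0.215, 0.532, 0.434 and 0.456 CPM against 0.542, 0.989, 0.947 and 1.10 CPM. The Phgdh levels were near 1 CPM or below, so counting error weighs on that value (-1.13 ± 0.36, DESeq2 adjusted p = 0.148). Csad of taurine synthesis had -0.46 ± 0.19 with overlapping libraries. In the 6 libraries left without high protein 1 and 4, Sds was at 0.85, Sdsl at 0.48, Ahcy at 0.45, Gnmt at 0.42 and Csad at -0.16. High protein library 1, nearly free of kidney markers, was the lowest for both Phgdh and Csad. With the kidney marker level as a covariate, Phgdh was at -0.92 and Csad at -0.30. The part of kidney transcripts in these values was not tested further.

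Transaminases and the breakdown of other amino acids had 13 of 16 genes higher and a median of 0.34. Oat, the ornithine aminotransferase, stood at 991, 765, 1176 and 1413 CPM against 663, 527, 459 and 477 CPM, without overlap (1.03 ± 0.19). Aass, which starts lysine breakdown, stood at 429, 318, 343 and 557 CPM against 239.7, 222, 206 and 259 CPM (0.83 ± 0.17). Got1, the cytosolic aspartate aminotransferase, stood at 757, 450.1, 385 and 1698 CPM against 239, 280.4, 184 and 328 CPM. High protein animal 4 had by far the highest Got1 level, and the other 3 animals also lay above the low protein group (1.67 ± 0.43). Got1 had an edgeR adjusted p of 0.2 and a DESeq2 adjusted p of 0.0798. The alanine aminotransferases had 0.53 ± 0.15 for Gpt, without overlap, and 0.58 ± 0.18 for Gpt2, where 1 low protein library lay within the high protein range. The glyoxylate aminotransferase Agxt had 0.31 ± 0.13 with overlap. Without high protein libraries 1 and 4, the median was 0.18, and the values were 0.87 for Oat, 0.51 for Aass, 0.69 for Got1, 0.24 for Gpt and 0.31 for Gpt2. Got1 was at 1.04 without library 4 alone.

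Branched-chain amino acid breakdown, which liver shares with muscle, had a median closer to that of all genes (-0.004). Of 19 genes 14 were higher, and the median was 0.07. DESeq2 called 2 higher and 0 lower, against 1.58% and 1.07% of the genes it tested. Free of overlap were 2 genes, both higher, against 3.56% of all genes tested. Those were Ivd, an acyl-CoA dehydrogenase of leucine breakdown (324, 285, 276 and 309 CPM against 206, 243, 208 and 227 CPM, 0.43 ± 0.10), and Dbt, the core of the branched-chain keto acid dehydrogenase (145, 126, 112 and 145 CPM against 102, 100.1, 87.3 and 91.1 CPM, 0.47 ± 0.11). Bckdk, the kinase that switches that complex off, overlapped (-0.08 ± 0.10).

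Of 11 glucose production genes 9 were higher with a median of 0.18, and 2 separated the diets. Ppargc1a, a coactivator of fasting and mitochondrial programs, stood at 60.1, 30.9, 24.3 and 55.7 CPM against 11.5, 17.6, 9.06 and 13.2 CPM, a fold of 3.33 (edgeR adjusted p = 0.119, DESeq2 adjusted p = 3.62e-06). Pck1, the enzyme that commits oxaloacetate to glucose, stood at 4113, 4473, 4190.3 and 6200.1 CPM against 1290.5, 2228, 1744 and 3054 CPM (1.19 ± 0.25). Kidney expresses Pck1 too, and the part of kidney transcripts in its level was not tested. With the kidney marker level as a covariate, Pck1 was at 1.24. G6pc, the last step, overlapped widely, at 85.8, 287, 603 and 964 CPM against 315, 306, 342 and 288 CPM, and Fbp1 had 0.13 ± 0.12. With high protein libraries 1 and 4 left out, the median was 0.11, Ppargc1a was at 1.10 and Pck1 at 1.06. The median was 0.058 without library 4 alone.

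Sugar use leaned the other way. Of 20 genes of glucose and fructose use, 15 were lower and 5 higher with high protein, and the median was -0.21. Free of overlap were 6 lower and 1 higher, against 3.21% and 3.56% of all genes tested. The diets overlapped in the list's median level by library. Pklr, the liver pyruvate kinase and a ChREBP target, stood at 104, 144, 87.5 and 76.8 CPM with high protein and 183, 155, 231 and 285 CPM with low protein (-1.05 ± 0.23, edgeR adjusted p = 0.172). The highest high protein library and the lowest low protein library were close. Khk, the fructokinase, stood at 358, 375, 311 and 416 CPM against 535, 421, 503 and 613 CPM (-0.51 ± 0.13). The gene of ChREBP itself, Mlxipl, overlapped, with -0.59 ± 0.28. On the opposite side, Pfkfb3, which makes the activator of phosphofructokinase, stood at 38.2, 31.3, 47.1 and 30.9 CPM against 10.6, 18.8, 12.7 and 23.5 CPM without overlap (1.17 ± 0.24). Txnip, a sugar-responsive gene, ranged too widely to compare (34.2, 102, 330.2 and 681 CPM against 93.0, 53.7, 82.2 and 259 CPM). In the 6 libraries left without high protein 1 and 4, 17 of 20 genes were lower and the median was -0.27, whereas without low protein library 4 the median was -0.083.

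**Figure D3:**
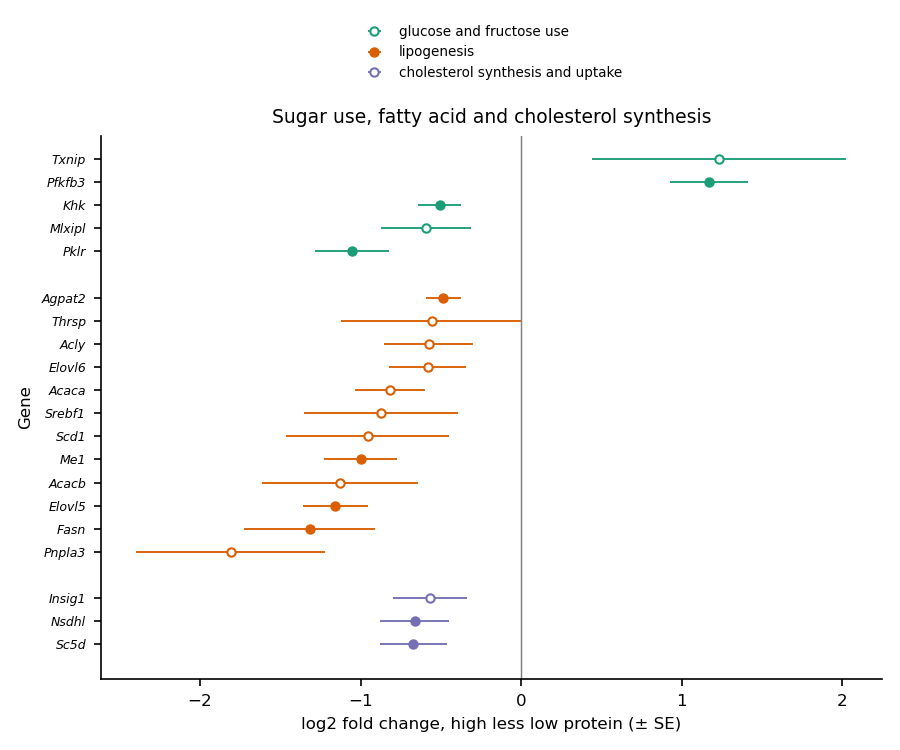
Log2 fold change (high less low protein, ± SE from edgeR) of the genes of sugar use, lipogenesis and cholesterol synthesis that are described in the text, coloured by list; filled circles mark genes whose 4 and 4 libraries do not overlap. The genes shown, some picked for a small p, lie mostly left of 0, with Pklr at -1.05 and Fasn at -1.31, while Pfkfb3 (1.17) lies to the right.

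Fatty acid synthesis had 17 of 21 genes lower with high protein and a median of -0.58, against -0.004 for all genes. The diets overlapped in the list's levels by library. As deviations from the mean of the 8 libraries (log2), the list median was 0.07, -0.07, -0.42 and -0.36 with high protein. With low protein it was -0.13, -0.15, 0.50 and 0.75, so only animals 3 and 4 lay above the high protein range. Elovl5, whose promoter is shown above, stood at 154, 157, 187 and 147 CPM against 291, 277, 334 and 536 CPM (-1.16 ± 0.20, edgeR adjusted p = 0.119, DESeq2 adjusted p = 2.2e-05). Me1, the malic enzyme that supplies NADPH, stood at 81.3, 126, 78.5 and 97.3 CPM against 193, 147, 146 and 279 CPM, a fold of 2.00 towards low protein. Both separated the diets. Fasn, the fatty acid synthase, stood at 287, 285, 209 and 123 CPM with high protein and 290.3, 294, 864 and 801 CPM with low protein (-1.31 ± 0.41). Low protein animals 1 and 2 were barely above the high protein range for Fasn, and animals 3 and 4 were far above it. Fasn had an edgeR adjusted p of 0.26 and a DESeq2 adjusted p of 0.12.

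Single low protein animals stood high for other genes of the list. Acacb, the acetyl-CoA carboxylase of mitochondria, stood at 17.7, 18.5, 49.2 and 101 CPM in the low protein animals and 21.2, 22.4, 19.6 and 22.1 CPM in the high protein animals. The sterol regulatory factor gene Srebf1 stood at 154, 166, 514 and 175 CPM with low protein and 231, 169.9, 73.2 and 76.3 CPM with high protein. Scd1, the stearoyl-CoA desaturase, stood at 1972, 1680.3, 442 and 821 CPM against 1812, 1111, 2041 and 4578 CPM. Each of these 3 overlapped between diets. The highest value was that of low protein animal 4 for Acacb and Scd1 and of animal 3 for Srebf1, and without that animal the log2 fold changes were -0.41 for Acacb, -0.43 for Scd1 and -0.26 for Srebf1. Acaca (-0.82 ± 0.22), Acly (-0.58 ± 0.28), Elovl6 (-0.58 ± 0.24), Thrsp (-0.56 ± 0.56) and the low-level Pnpla3 (-1.81 ± 0.59) overlapped too. Agpat2 of triglyceride assembly did not (78.0, 95.3, 98.1 and 80.4 CPM against 122, 117, 139.6 and 114 CPM). Without high protein libraries 1 and 4, 19 of 21 genes were lower and the median was -0.70. It was -0.39 without low protein library 3 alone.

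Cholesterol synthesis had 18 of 23 genes lower and a median of -0.25, and no gene was called by DESeq2. Sc5d and Nsdhl, late steps of the pathway, were the 2 without overlap, at -0.67 ± 0.21 and -0.66 ± 0.21. Insig1, which holds SREBPs in the endoplasmic reticulum, had -0.57 ± 0.23 with overlap. With high protein libraries 1 and 4 left out, 14 of 23 were lower and the median was -0.09, with -0.38 for Nsdhl. The median was -0.090 without library 4 alone and -0.14 without low protein library 3.

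Mitochondrial fatty acid oxidation and ketogenesis had 14 of 20 genes higher, a median of 0.11 and no gene free of overlap. That median was 0.038 without high protein library 4 and 0.033 without libraries 1 and 4. Cpt1a, the gatekeeper of mitochondrial import, had 0.28 ± 0.12 and Slc25a20, the carnitine carrier, 0.32 ± 0.14. Targets of PPAR-alpha, the fasting and fatty acid sensor, had a median of 0.36 with 14 of 21 higher, and that median was -0.01 without high protein libraries 1 and 4. Leaving out library 4 alone gave -0.003. Cyp4a14, an omega-hydroxylase with close paralogs, stood at 737, 191, 711 and 2062 CPM with high protein against 406, 667, 75.5 and 332 CPM, with high protein animal 4 the highest. Cyp4a10 (0.90 ± 0.50), Angptl4 (0.98 ± 0.51) and Pdk4 (0.72 ± 0.68) overlapped as well. The lipid droplet protein gene Plin2 had -0.69 ± 0.23, Vnn1 -0.44 ± 0.23 and the fatty acid binding protein gene Fabp1 -0.65 ± 0.23, of which Fabp1 alone was without overlap (500.5, 825, 807 and 595 CPM against 908, 835, 947 and 1581 CPM). Fabp1 was at -0.40 without low protein library 4.

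In bile acid handling 7 of 15 genes were higher and 8 lower, and none separated the diets. Cyp7a1, the rate-limiting enzyme of bile acid synthesis, ranged over 561, 267, 39.5 and 368 CPM with high protein and 134, 98.6, 74.6 and 24.8 CPM with low protein. High protein animal 3 lay within the low protein range, and the log2 fold change of 1.90 ± 0.69 had an edgeR adjusted p of 0.329. Cyp8b1 was at -0.51 ± 0.22 and the bile salt export pump gene Abcb11 at -0.34 ± 0.11. Drug metabolism genes included Por, the electron donor of microsomal cytochromes P450, at 835, 459, 566 and 1409 CPM against 162, 287, 272 and 429.6 CPM without overlap (1.51 ± 0.37). Cyp2a5 was at 1.44 ± 0.41 and Cyp3a11 at -0.52 ± 0.28, both overlapping and both from families with near-identical copies. The median of the 15 genes was 0.23 with all 8 libraries and -0.30 without high protein libraries 1 and 4, where Por was at 0.83 and Cyp2a5 at 0.41. It was 0.034 without library 1 alone and 0.46 without low protein library 4. For the defence factor NRF2, its gene Nfe2l2 stood at 80.2, 82.6, 94.4 and 80.6 CPM against 121, 97.6, 117 and 105 CPM without overlap (-0.38 ± 0.10), and its targets were mixed: Gsta4 0.64 ± 0.17, Gclc -0.66 ± 0.20 and Nqo1 0.28 ± 0.19, with 8 of 15 higher. The median of these 15 was 0.13, and -0.0071 without high protein library 4.

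**Figure D4:**
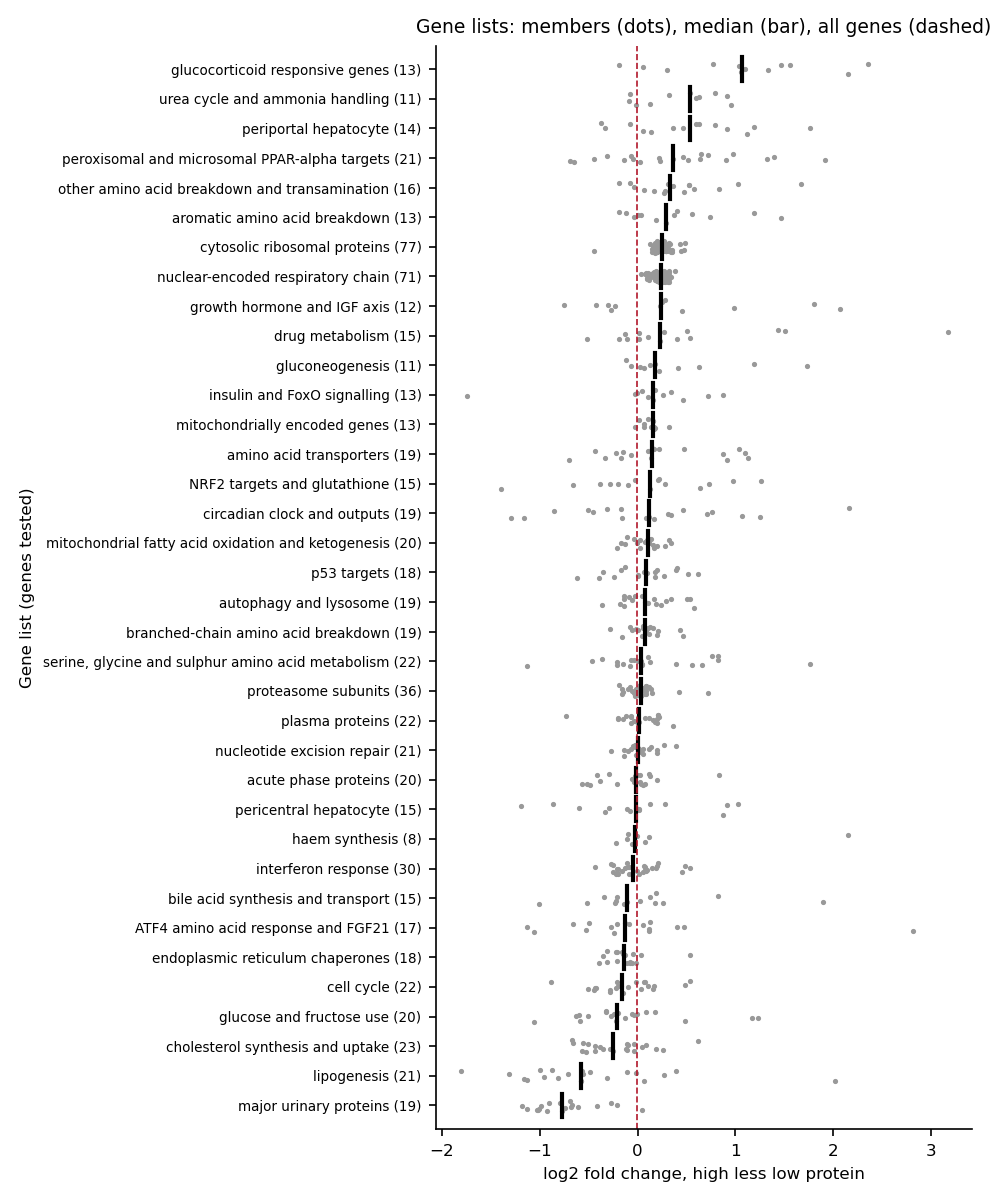
Log2 fold change (high less low protein) of the tested members of 36 gene lists (grey dots, 1 per gene) with each list's median (black bar) and the median of all 16638 genes (dashed line at -0.004); the vertical scatter within a list carries no value. Glucocorticoid responsive genes have the highest median (1.07) and major urinary proteins the lowest (-0.77), and the ribosomal and respiratory lists are narrow and right of 0.

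The list with the highest median of the 49 examined was that of glucocorticoid responsive genes, with 12 of 13 higher and a median of 1.07. As deviations from the mean of the 8 libraries (log2), the list median was 0.55, 0.12, 0.28 and 1.14 with high protein. With low protein it was -0.95, 0.21, -1.05 and -0.49, so low protein animal 2 lay within the high protein range. Of the 13 genes, 8 stood at an unadjusted p under 0.05, 4 were free of overlap and 4 were called by DESeq2, all higher. The shares of all genes that were higher in these ways were 6.51%, 3.56% and 1.58%. Fkbp5, a chaperone of the glucocorticoid receptor, stood at 109, 70.0, 87.6 and 176 CPM against 34.0, 52.6, 29.0 and 59.6 CPM (1.33 ± 0.31, edgeR adjusted p = 0.18). Cebpd, a transcription factor of stress and inflammation, stood at 12.8, 8.23, 13.5 and 22.7 CPM against 3.48, 7.30, 3.18 and 5.39 CPM (1.56 ± 0.34). The groups were separate for both genes. Tsc22d3, another receptor target, stood at 147, 102, 186 and 202 CPM against 55.0, 177, 61.2 and 80.8 CPM and overlapped, with low protein animal 2 high. In the 6 libraries left without high protein 1 and 4, 11 of 13 were higher and the median was 0.63. Tat, described above, is in this list too.

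Genes of insulin and FoxO signalling had 10 of 13 higher and a median of 0.16. Ppp1r3c, which brings the phosphatase to glycogen and favours its storage, stood at 16.4, 23.0, 35.0 and 6.38 CPM with high protein against 86.6, 75.9, 66.0 and 40.8 CPM with low protein (-1.74 ± 0.43). Foxo1, the factor that insulin keeps out of the nucleus, stood at 70.5, 47.3, 45.9 and 77.7 CPM against 28.7, 41.1, 33.8 and 42.5 CPM (0.72 ± 0.20). Neither overlapped, and without high protein libraries 1 and 4 the values were -1.22 and 0.35. Irs2, the insulin receptor substrate, was at 0.87 ± 0.37 with high protein animal 4 highest (41.1, 55.4, 38.0 and 131 CPM against 35.0, 26.9, 45.4 and 37.8 CPM).

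On the growth hormone and IGF axis 7 of 12 genes were higher, with a median of 0.24 that was 0.035 without high protein library 4. Socs2, the feedback inhibitor of growth hormone signalling, stood at 45.4, 44.2, 26.3 and 32.0 CPM against 10.8, 22.8, 18.3 and 22.8 CPM without overlap (0.99 ± 0.25), while Stat5a of the same pathway lay on the other side, as given above. Igf1 was at 0.23 ± 0.11, the receptor gene Ghr at -0.30 ± 0.17 and Igfbp2 at 0.25 ± 0.19, all overlapping. Igfbp1, a binding protein that insulin represses, stood at 95.0, 86.9, 188 and 1367 CPM against 218, 104, 59.9 and 116 CPM. High protein animal 4 was far above the rest, and the log2 fold change of 1.80 ± 0.85 was 0.14 without libraries 1 and 4 and -0.01 without library 4 alone.

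Clock genes had wide ranges within a diet, and 0 of 19 were free of overlap. Noct, a rhythmic phosphatase of NADP(H), stood at 153, 119, 43.5 and 156 CPM against 6.12, 60.6, 21.8 and 16.4 CPM (2.16 ± 0.62), and Ciart, a repressor of the clock, at 1.25 ± 0.45. Nr1d1, encoding REV-ERB alpha, stood at 24.2, 81.4, 127 and 17.5 CPM against 142, 123, 157 and 191 CPM (-1.29 ± 0.53). Arntl, encoding BMAL1, had -1.16 ± 0.49 at levels of 0.753 to 7.59 CPM, Per2 0.76 ± 0.36 and Dbp -0.16 ± 0.29. The time of day at which livers were taken is not given in the sources used here.

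The amino acid response through ATF4, which is engaged when amino acids run short, did not lean to either side: 7 of 17 genes were higher and 10 lower, with a median of -0.13. Asns, the asparagine synthetase, was at 0.47 ± 0.29, Trib3 at -0.65 ± 0.44 and the hormone gene Fgf21 at -1.05 ± 0.78, all overlapping. Fgf21 was near the detection limit in part of the libraries (0.0646, 0.559, 2.38 and 1.18 CPM against 1.99, 1.12, 1.13 and 4.43 CPM). Atf5, a related factor, was at -0.49 ± 0.13 with a slight overlap. Ddit4, an inhibitor of mTORC1 that glucocorticoids also induce, stood at 21.6, 15.1, 37.0 and 202 CPM against 10.4, 12.6, 8.41 and 7.67 CPM without overlap. Animal 4 held by far the highest Ddit4 level, and the log2 fold change of 2.82 ± 0.75 was 1.42 without libraries 1 and 4.

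Genes of the DNA damage response stayed near the background. Of 18 p53 targets 12 were higher with a median of 0.09, which was 0.0063 without high protein library 4, and 0 were free of overlap. Cdkn1a, the cell cycle inhibitor p21, was at 14.4, 15.0, 37.2 and 28.7 CPM against 17.6, 17.1, 14.8 and 17.0 CPM, with high protein animals 3 and 4 above all others (0.52 ± 0.28). Bax was at 0.18 ± 0.09 and Fas at -0.36 ± 0.13. In nucleotide excision repair 12 of 21 genes were higher, with a median of 0.005 that turned to a value below 0 with upper-quartile scaling. Ercc5, the endonuclease that cuts on the other side of the lesion from the Ercc1 complex, stood at 34.5, 28.7, 27.3 and 29.4 CPM against 22.9, 24.3, 21.4 and 22.3 CPM without overlap (0.40 ± 0.10), and Gtf2h1 of the repair factor TFIIH was at 0.27 ± 0.10. Chaperones of the endoplasmic reticulum had 16 of 18 lower but 0 at an unadjusted p under 0.05, with Hspa5 at -0.15 ± 0.25, Pdia4 at -0.39 ± 0.21 and Pdia6 at -0.35 ± 0.19. Without high protein libraries 1 and 4, 12 of these 18 were higher, and the median went from -0.14 to 0.04. Without low protein library 4 it was 0.014.

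Ribosomal and respiratory genes were higher by small amounts in nearly every member, but the diets overlapped in both lists' levels by library. As deviations from the mean of the 8 libraries (log2), the ribosomal median was -0.11, 0.11, 0.12 and 0.34 with high protein against -0.10, -0.04, -0.31 and -0.04 with low protein. The respiratory median was -0.09, 0.08, 0.04 and 0.41 against -0.12, -0.06, -0.31 and 0.02. High protein animal 1 lay within the low protein range in both, high protein animal 4 was the highest and low protein animal 3 the lowest. Of 77 cytosolic ribosomal protein genes 76 were higher with high protein, with a median of 0.26. Of these 26 stood at an unadjusted p under 0.05, 8 were free of overlap and 0 were called by DESeq2. Among all genes tested, 6.51% were higher at that p and 3.56% were higher without overlap. Rpl7a of the large subunit stood at 341, 361, 364 and 386 CPM against 307, 275, 282 and 324 CPM (0.29 ± 0.09) and Rps13 of the small subunit at 79.9, 89.3, 89.5 and 107 CPM against 71.6, 74.7, 63.3 and 78.5 CPM (0.34 ± 0.11). With high protein libraries 1 and 4 left out, 76 of 77 were again higher, with a median of 0.25. Ribosomal protein genes have many processed copies, so single values are uncertain.

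Of 71 nuclear genes of the respiratory chain 71 were higher, with a median of 0.24, 15 at an unadjusted p under 0.05 and 0 called by DESeq2. Among all genes tested 6.51% were higher at that p. Ndufb2 of complex I was at 0.39 ± 0.13 and Cox5a of complex IV at 64.4, 66.2, 64.3 and 86.3 CPM against 55.0, 59.4, 51.0 and 59.8 CPM (0.32 ± 0.12), which was 0.21 without high protein library 4. In the 6 libraries left without high protein 1 and 4, 70 of 71 were higher and the median was 0.17. It was 0.12 without high protein library 4 alone. Of 13 genes encoded in mitochondrial DNA 12 were higher with a median of 0.15, with mt-Co2 at 0.18 ± 0.13 and mt-Nd3 at 0.32 ± 0.21, and that median was 0.02 without high protein library 3. These lists hold short genes, with median genomic lengths of 3.24 kb (ribosomal) and 7.67 kb (respiratory, nuclear), and all protein-coding genes under 10 kb had a median log2 fold change of 0.04. Proteasome subunits had a median of 0.03. Psmd9, an assembly chaperone that overlaps Hpd on the opposite strand, was at 0.72 ± 0.19.

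Secreted proteins differed by family. Major urinary proteins, pheromone carriers under growth hormone and androgen control, had 18 of 19 genes lower and a median of -0.77. No member was free of overlap: Mup10 stood at 114, 167, 201 and 69.4 CPM against 218, 172, 274 and 291 CPM and Mup16 at 15.6, 25.8, 26.4 and 5.93 CPM against 32.2, 23.8, 55.8 and 55.5 CPM, with high protein animal 4 lowest for both. Without high protein libraries 1 and 4, 15 of 19 were lower and the median was -0.26. These genes are near-identical copies and are not independent of each other in the counting. Plasma proteins as a list did not lean to either side (12 of 22 higher), with Alb at -0.07 ± 0.15, Rbp4 at 0.36 ± 0.14 and Apoa4, an apolipoprotein of fat-laden liver and gut, at 343, 325, 348 and 402 CPM against 337, 657, 599.7 and 756 CPM (-0.73 ± 0.21).

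Acute phase genes were mixed as well, with 9 of 20 higher and a median of -0.01. At an unadjusted p under 0.05 stood 1 higher and 5 lower, against 6.51% and 5.72% of all genes tested. Free of overlap were 1 higher and 2 lower, against 3.56% and 3.21%. Orm2 stood at 9.58, 8.84, 14.1 and 11.6 CPM against 7.20, 6.22, 6.20 and 5.20 CPM (0.83 ± 0.17) and the copper oxidase ceruloplasmin, Cp, at 820.0, 802, 937 and 771 CPM against 1174, 1118, 1131 and 1024 CPM (-0.42 ± 0.10), in opposite directions and both without overlap. The serum amyloid genes Saa1 (-0.51 ± 0.21) and Saa2 (-0.57 ± 0.24) overlapped. In haem synthesis, Alas1, the rate-limiting enzyme, stood at 1464, 1037, 474 and 1157 CPM with high protein against 114, 378, 184 and 254 CPM with low protein. The fold was 4.44 and the groups did not overlap (edgeR adjusted p = 0.132, DESeq2 adjusted p = 0.000572). Ppox of the same pathway was at -0.22 ± 0.09, and 5 of 8 genes of the list were lower. Of autophagy and lysosome genes 11 of 19 were higher, with Bnip3, a mitophagy receptor, at 0.53 ± 0.15 and the protease gene Ctsl at 755, 623, 812 and 1193 CPM against 588, 561, 559.6 and 558 CPM (0.58 ± 0.17), both without overlap. Ctsl was at 0.37 without high protein library 4.

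Liver zones are told apart by periportal and pericentral genes. Periportal genes had 11 of 14 higher, a median of 0.53, 9 free of overlap and 8 called by DESeq2, all higher. The shares of all genes that were higher in the latter ways were 3.56% and 1.58%. This list shares Cps1, Ass1, Arg1, Gls2, Sds and Pck1 with the lists above, so it is no separate evidence. Etnppl, a periportal phospholyase of phosphoethanolamine, stood at 148, 129, 125 and 349 CPM against 100.1, 83.3, 97.3 and 65.2 CPM (1.12 ± 0.32), and at 0.63 without high protein library 4. Pericentral genes split evenly, 7 of 15 higher and 8 lower, with Oat and Slc1a2 higher, Tbx3 lower and Cyp2e1 at 0.28 ± 0.13.

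Interferon-responsive genes had 14 of 30 higher and 16 lower, with a median of -0.05. Free of overlap were 3 higher and 1 lower, against 3.56% and 3.21% of all genes tested. At an unadjusted p under 0.05 stood 3 higher and 0 lower, against 6.51% and 5.72%. Usp18, a brake on interferon signalling, stood at 28.6, 21.1, 27.4 and 28.7 CPM against 18.8, 21, 18.9 and 16.8 CPM (0.48 ± 0.12) and Irf7 at 60.1, 54.9, 45.9 and 46.1 CPM against 32.5, 41.1, 44.1 and 33.0 CPM (0.46 ± 0.14), both without overlap. Cell cycle genes had 14 of 22 lower, a median of -0.16 and 0 at an unadjusted p under 0.05, and without low protein library 3 the median turned to 0.026 with 11 of 22 higher. Examples were Cdk1 at -0.50 ± 0.23, Mcm2 at -0.45 ± 0.21 and Ccnd1 at -0.21 ± 0.22.

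Marker lists of Kupffer cells, recruited macrophages and neutrophils, T and NK cells, and stellate cells had medians of -0.11 to -0.01, and of -0.19 to 0.15 with 1 library left out. B cell markers were lower with high protein in 10 of 10 genes, with a median of -0.79 and 6 at an unadjusted p under 0.05. Among all genes tested 5.72% were lower at that p. Their summed level was 6.72, 10.2, 8.73 and 5.96 CPM of the library total with high protein and 15.6, 9.03, 14.5 and 15.3 CPM with low protein, and low protein animal 2 lay within the high protein range. Cd79b, a chain of the B cell receptor complex, stood at 0.301, 0.639, 0.298 and 0.161 CPM against 0.904, 0.637, 1.01 and 0.715 CPM with overlap (-1.22 ± 0.41). These levels are near or below 1 CPM, and DESeq2 called none of the 10. With high protein libraries 1 and 4 left out, 9 of 10 were lower.

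Sinusoidal endothelial markers had 11 of 12 higher with a median of 0.22, and the median was 0.02 without high protein libraries 1 and 4. Bmp2, which these cells send to hepatocytes to control iron, stood at 15.8, 10.3, 15.3 and 17.3 CPM against 9.16, 8.88, 9.33 and 9.24 CPM without overlap (0.68 ± 0.15), and the scavenger receptor gene Stab1 had 0.26 ± 0.10. Kupffer cell markers did not lean to either side (6 of 13 higher), with Cd163 at 0.58 ± 0.32 and Marco at 0.49 ± 0.29. Stellate cell and matrix markers had 8 of 13 lower, with Pdgfrb at -0.36 ± 0.12 and Col1a1 at -0.43 ± 0.17.

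Among cholangiocyte markers, Sox9 stood at 1.61, 2.34, 2.85 and 1.64 CPM against 3.07, 2.48, 5.18 and 2.67 CPM with overlap (-0.67 ± 0.29). Kidney tubules express cholangiocyte genes too, and high protein library 1, nearly free of kidney markers, was the lowest for Sox9. Its summed cholangiocyte level was 33.3 CPM against 70.9 to 84.5 CPM in the other 7 libraries. The part of kidney transcripts in these values was not tested. Kidney markers themselves had 17 of 20 lower with all libraries and 17 of 20 higher without high protein libraries 1 and 4. The collecting duct gene Aqp2 was at 0, 5.25, 1.87 and 4.96 CPM against 6.82, 11.5, 4.03 and 6.27 CPM. Erythroid markers summed to 667, 689, 359 and 1258 CPM with high protein and 416, 403, 354 and 598 CPM with low protein, with Hbb-bs at 0.80 ± 0.33 and Hbb-bt at 0.80 ± 0.32, near-identical globin genes that are uncertain singly. Of 12 pancreas markers 6 (Cela3b, Cpa1, Pnlip, Ins1, Ins2 and Gcg) had no count in any of the 8 libraries, and of 6 muscle markers Ckm and Myh1 had none.

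The series title names a decline of transcription that depends on gene length, so the relation of level to genomic length was measured in each library over 13160 protein-coding genes. The slope is in log2 CPM per 10-fold of length, as a deviation from the mean of the 8 libraries, and below 0 where long genes are relatively low. High protein libraries had slopes of -0.03, 0.06, -0.05 and -0.07, and low protein libraries 0.10, -0.02, 0.07 and -0.05. High protein animals 1, 2 and 3 lay within the low protein range, and low protein animals 2 and 4 within the high protein range. The means were -0.0239 ± 0.0557 with high protein and 0.0239 ± 0.0719 with low protein (SD, n = 4 each). The difference of -0.05 was within the spread of the libraries (exact two-sided permutation test over 70 assignments, p = 0.257; the smallest possible p is 0.0286).

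Summaries across genes rest on the same libraries and genes as these slopes, so their shared direction is no separate evidence. The median log2 fold change went from 0.04 in 3106 genes under 10 kb, of which 57.4% were higher with high protein, through -0.02 in 2554 genes of 30 to 60 kb, to -0.13 in 185 genes over 400 kb, of which 33.5% were higher. Across genes, which are not independent replicates, Spearman's rho between length and log2 fold change was -0.117. Long genes went in both directions: Cps1 (108234 bases) and Arid5b (186221 bases) were higher with high protein, and Gpd2 (133085 bases) and Me1 (114583 bases) were lower. Of 1104 genes of 100 to 200 kb, 40.7% were higher. At an unadjusted p under 0.05 stood 64 higher and 72 lower in that class.

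**Figure D5:**
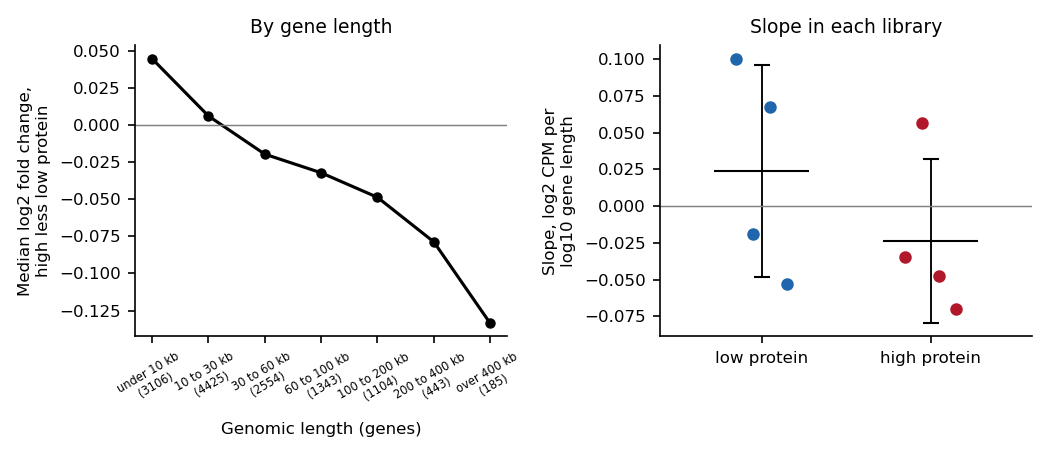
Left, median log2 fold change (high less low protein) of protein-coding genes in 7 classes of genomic length, with the number of genes in each class; right, slope of log2 CPM on log10 genomic length in each library with mean and SD of each diet. The class medians descend from 0.04 to -0.13, and the slopes of the diets overlap (high protein from -0.07 to 0.06, low protein from -0.05 to 0.10).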

How the data were processed

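RNA of snap-frozen liver from 8 of 16 animals (4 high protein, 4 low protein) was analysed; control and low fat libraries entered only 1 alternative. The authors deposited whole-number read counts per gene with gene positions and exon length. They used edgeR 3.32.1, STAR 2.7.0f, Subread 1.6.4 with featureCounts, and Trimmomatic 0.39 with build GRCm38.p6, per the submitters' processing notes. Per the labels' protocols the library kit was directional; whether counting used strand, and with which annotation release, is not given in the sources used here. Of 54752 genes, 53861 matched GENCODE M21 by versioned identifier at the same start and end, and 862 more took a symbol from a name table.

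In edgeR 4.0.16 (R 4.3.3), genes that passed filterByExpr (16638) were scaled with TMM factors and fitted with 2 diet means by the quasi-likelihood model. Tests were two-sided with Benjamini-Hochberg adjustment over all tested genes at 0.05. DESeq2 1.42.0 and limma 3.58.1 served in alternatives, and DESeq2 gave no adjusted p for 330 genes. The SE of a log2 fold change was derived from the test statistic. Cell type sums are CPM of the library total.

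The comparison, its 49 gene lists (36 programs, 13 cell types) and the naming rule were chosen with earlier results of these data known. The rule named the 10 protein-coding genes of smallest p in each direction with a mean of at least 1 CPM, key members and the 2 smallest p-values of each list, and Ercc1: 187 genes, of which 155 are described with 2 more noncoding genes; some of the others are not reported here. Length slopes used log2 CPM (prior count 2) and an exact permutation test.

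The steps were tested on simulated counts of this comparison (16309 genes passing the filter). With 50 genes changed at each size, 50 were found by edgeR for 8-fold changes, 45 for 4-fold, 29 for 2-fold and 10 for 1.5-fold changes, beside 6 false calls. Whether these recovery counts hold for the measured libraries was not tested. In the measured libraries edgeR called 0 of 16638 genes, and Alas1, with a fold of 4.44, had an edgeR adjusted p of 0.132. The alternatives were other scalings, tools and filters, all 16 libraries in 1 fit, a replicate block, a kidney covariate and leaving out libraries. Robust empirical Bayes and the fit without high protein libraries 1 and 4 were added after the data were seen.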

Additional observations from a re-analysis of the deposited data

Results flagged for a closer look

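In groups of 4, 1 animal stood far from the other 3 (its gap to the nearest one, relative to the group's range, exceeded Dixon's critical value) in 19 of 344 groups examined. Chance alone sets about 1 in 20 groups apart.

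High protein animal 4 was the extreme one in 5 of them. It was highest for Ddit4 (202 CPM against 15.1 to 37.0 CPM), Igfbp1 (1367 CPM against 86.9 to 188 CPM), Etnppl (349 CPM against 125 to 148 CPM) and Cox5a (86.3 CPM against 64.3 to 66.2 CPM), and lowest for Aqp8 (30.0 CPM against 49.9 to 51.3 CPM). High protein animal 3 was highest for Trib3 (39.8 CPM) and Nfe2l2 (94.4 CPM) and lowest for 5830473C10Rik (30.1 CPM). High protein animal 2 was lowest for Usp18 (21.1 CPM) and Stab1 (50.7 CPM). High protein animal 1 had the highest summed level of stellate and matrix markers (384 CPM against 359 to 363 CPM).

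With low protein, animal 3 was highest for Srebf1 (514 CPM against 154 to 175 CPM) and Gpd2 (57.7 CPM). Animal 4 was highest for Trib3 (54.3 CPM against 22.5 to 23.5 CPM) and Fabp1 (1581 CPM against 835 to 947 CPM). Animal 1 was highest for Tdo2 (2524 CPM against 1592 to 1737 CPM) and Ctsl (588 CPM against 558 to 561 CPM). Animal 2 was highest for Bckdk (22.3 CPM) and lowest for the sum of B cell markers (9.03 CPM against 14.5 to 15.6 CPM).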

How the results depend on the processing

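No gene was called with RLE or upper-quartile factors, limma-voom with quality weights, a filter of over 1 CPM, all 16 libraries in 1 fit (smallest adjusted p 0.787), a kidney covariate, robust empirical Bayes or high protein libraries 1 and 4 left out together. DESeq2 called 432 genes, and edgeR without a filter on low counts called 130, of which 128 were among those of DESeq2. Leaving out 1 library gave 0 to 50 calls: 50 without high protein library 3, of which 43 were among those of DESeq2, 2 without high protein library 4 and 0 for each other library. The cause of these differences was not tested. With a replicate block edgeR called 0 genes (smallest adjusted p 0.228, 1876 at an unadjusted p under 0.05). Same-numbered libraries deviated together with correlations of -0.21, 0.02, 0.10 and 0.04, so the numbers were taken as names and not as pairs.

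The length slope difference kept its sign under every alternative run: -0.0562 with exon length (exact p = 0.6), -0.105 for genes over 100 kb less those under 10 kb (exact p = 0.2), and -0.0727 to -0.0195 with 1 library left out. The replicate block left it at -0.0478 (exact sign-flip p = 0.375).

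Leaving out 1 library moved 52 of the 157 described genes by over 1.5 times. Of these 45 overlapped between diets, and the 7 others were Hpd, Got1, Fabp1, Ddit4, Cox5a, Ctsl and Etnppl. Of the described genes, 6 changed sign under some alternative, all overlapping between diets. With 1 library left out, their log2 fold changes ran from -0.31 to 1.20 for Pdk4, -0.35 to 0.021 for Dbp, -0.015 to 2.22 for Igfbp1, -0.021 to 0.15 for Ercc1, -0.42 to 0.080 for Hspa5 and -0.17 to 0.010 for Alb. Leaving out high protein libraries 1 and 4 put Pdk4 at -0.0092 and Hspa5 at 0.073. There the other 155 of 157 genes kept their sign, and 64 of the 157 were smaller by over 1.5 times. At 36662347 to 46899907 counts per library, depth limits genes below about 1 CPM, such as Phgdh and Pnpla3.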
